A study of Mus musculus with 10 samples.

Results

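The genes followed were 9 that encode transcription factors of naive, memory and effector T cells, namely Tcf7, Lef1, Foxo1, Tbx21, Eomes, Id2, Id3, Prdm1 and Bcl6. They were found by their gene symbol, and all 9 of the 25814 genes in the tables that carry these symbols were present in each of the 10 libraries. The libraries fall into 5 groups of 2. Primary keratinocytes from the tail skin of adult C57/B6 mice were sequenced without T cells (keratinocytes alone) or from the co-culture (co-cultured keratinocytes). Splenic CD8+ T cells of the same strain, isolated with microbeads from mice of 8 to 12 weeks, were sequenced after 1 d of activation by αCD3/CD28 Abs (activated T cells), after activation and 1 d in keratinocyte medium (medium T cells), or after activation and co-culture with keratinocytes (co-cultured T cells). The labels name no transgene or deletion for any group, and no unstimulated T cells were analysed here, so that the activated T cells are the common reference of the medium and the co-cultured T cells. The co-culture lasted 1 d by the study's methods, while the deposited design text gives 1 h. The labels number the replicates of the keratinocytes and of the activated T cells, and for the other T-cell groups the numbers 1 and 2 only name a library. Nothing in the labels says whether replicates came from separate mice, so that p-values measure the spread between these libraries, which may be technical.

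These factors set the balance between T cells that persist and T cells that kill. TCF-1, the product of Tcf7, and its relative LEF-1 bind DNA through an HMG box and keep the gene programme of naive and memory cells, and FOXO1 drives genes for homing and survival and is pushed out of the nucleus by signals from the T-cell receptor. T-bet, encoded by Tbx21, and Eomes are T-box factors of cytotoxic cells, with Eomes also being tied to memory. Id2 and Id3 have no DNA-binding domain of their own and hold E proteins off the E-box, with Id2 favouring effector and Id3 memory precursor cells. Blimp-1, encoded by Prdm1, and Bcl6 are repressors that oppose each other in terminally differentiated and in memory or follicular cells. Foxo1, Id2, Id3, Prdm1 and Bcl6 are transcribed in many tissues, skin included.

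The start regions of the 4 factors with the clearest group differences or closest kinship to them are shown first, to place these genes in the genome. Each sequence holds 250 bases before to 50 bases after a transcription start of RefSeq (GRCm38.p6), in the direction of the gene, and its start is the one nearest to the 5′ end that the deposited tables give for the gene. The distance between the 2 was 0 bases for Tcf7 and Tbx21, 23 bases for Eomes and 148 bases for Lef1, whose window lies wholly before the gene as the tables bound it. Capitals mark matches, on either strand, to the E-box CANNTG or to TGGAAA, the core bound by NFAT factors that act downstream of the T-cell receptor.
Tcf7 (chr11:52282965-52283264, minus strand): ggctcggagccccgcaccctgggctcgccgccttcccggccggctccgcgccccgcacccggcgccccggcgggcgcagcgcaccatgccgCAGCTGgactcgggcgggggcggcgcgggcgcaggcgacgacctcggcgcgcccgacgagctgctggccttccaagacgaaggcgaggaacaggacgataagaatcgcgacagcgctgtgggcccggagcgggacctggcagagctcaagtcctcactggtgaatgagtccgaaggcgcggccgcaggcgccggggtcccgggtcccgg
Lef1 (chr3:131110073-131110372, plus strand): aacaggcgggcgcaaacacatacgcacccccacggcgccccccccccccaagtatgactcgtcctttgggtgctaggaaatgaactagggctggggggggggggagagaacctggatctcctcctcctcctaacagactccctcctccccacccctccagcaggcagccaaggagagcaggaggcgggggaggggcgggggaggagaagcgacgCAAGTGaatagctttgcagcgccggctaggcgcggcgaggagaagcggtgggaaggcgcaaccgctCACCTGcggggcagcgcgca
Tbx21 (chr11:97115282-97115581, minus strand): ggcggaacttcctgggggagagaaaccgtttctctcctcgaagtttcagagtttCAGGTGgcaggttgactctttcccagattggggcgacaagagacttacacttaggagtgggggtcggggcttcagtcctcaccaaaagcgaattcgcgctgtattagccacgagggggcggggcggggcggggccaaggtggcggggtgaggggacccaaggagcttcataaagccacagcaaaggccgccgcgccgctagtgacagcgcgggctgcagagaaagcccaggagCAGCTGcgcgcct
Eomes (chr9:118477939-118478238, plus strand): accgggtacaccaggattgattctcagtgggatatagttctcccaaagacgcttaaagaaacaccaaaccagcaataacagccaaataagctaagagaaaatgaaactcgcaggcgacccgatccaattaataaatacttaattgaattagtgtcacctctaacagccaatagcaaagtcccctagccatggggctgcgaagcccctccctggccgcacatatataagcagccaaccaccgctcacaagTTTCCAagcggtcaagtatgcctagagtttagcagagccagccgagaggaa

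The Tcf7 window held 76.3% G and C and the Eomes window 47.3%, with 67.3% for Lef1 and 62.0% for Tbx21, while the median of all 32851 RefSeq start windows was 52.7%. One E-box was found for Tcf7, 2 each for Lef1 and Tbx21 and 0 for Eomes, and 72.3% of all windows hold at least 1. The TGGAAA core, at the start site of Eomes, was present in 21.4% of all windows. TCAAAG, a core of TCF/LEF sites found in 16% of all windows, and GGTGTGA, a T-box core found in 3.98%, had no match in the windows of the 9 genes. GTAAACA, a FOXO core found in 3.65% of all windows, matched the window of Prdm1 only, which lies 69753 bases from the 5′ end in the tables. These matches describe the letters of a short window and not binding. In the Tcf7 window an ATG before the start opens a reading frame without a stop codon up to the window's end. The E-box lies in this frame, so that these bases may be exon and not upstream sequence, which was not tested.

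Depth was similar between libraries, with 12864931 to 18019609 exon reads, and a count of 3 over 1 kb of exon sequence would give 0.158 to 0.212 RPKM (reads scaled to exon length and to mapped reads, as deposited). The labelled cell types were checked with marker genes. Krt14, a keratin of basal keratinocytes, was at 7240 to 11800 RPKM in keratinocyte libraries, at 0.350 to 1.06 RPKM in activated and medium T cells and at 61.6 and 16.8 RPKM in co-cultured T cells. Cd8b1, a chain of the CD8 co-receptor, was at 141 to 762 RPKM in T cells and at 0.107 to 2.00 RPKM in keratinocyte libraries. Cd4, the co-receptor of helper cells, which a CD8+ isolation should lack, was at 16.8 and 102 RPKM in the activated T cells, at 62.0 to 75.9 RPKM in the other T cells, and at 11.4, 43.5, 15.0 and 84.5 RPKM in the keratinocyte libraries (alone 1 and 2, co-cultured 1 and 2). Of the markers of other cells, 6 B-cell genes summed to 31.0 and 33.1 RPKM in activated, 45.5 and 93.5 RPKM in medium and 17.0 and 27.6 RPKM in co-cultured T cells, 6 myeloid genes to 11.8 and 63.2, 41.2 and 43.8, and 33.6 and 36.7 RPKM, and 4 NK-cell genes to 1.77 to 7.61 RPKM. Their part in the levels of the factors was not tested. The activated libraries stand apart from each other in Cd4 and in myeloid genes. The log2 fold changes of Tcf7 and Eomes are given with and without each. For the other factors this is done in part, and for the genes of the other lists it is not.

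**Figure D1:**
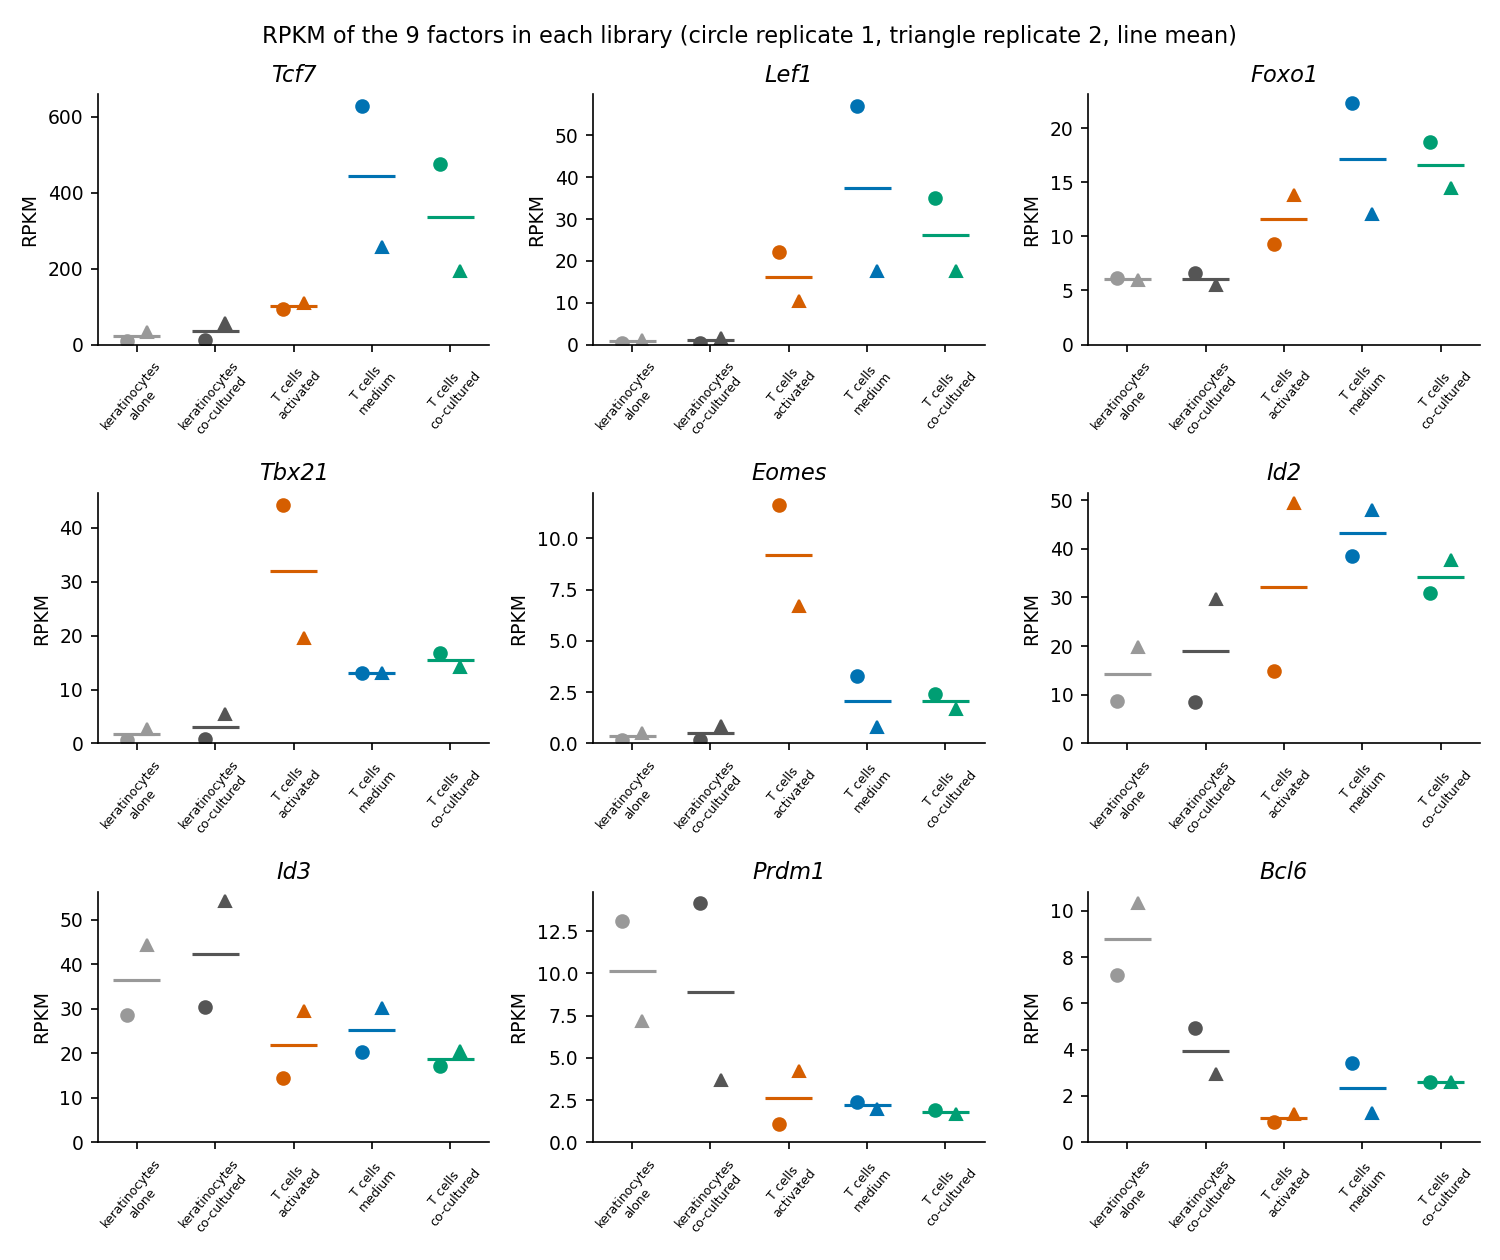
RPKM (vertical axis, linear, from 0) of each of the 9 factors in the 10 libraries, by group; circles are replicate 1, triangles replicate 2 and lines the group mean. Tcf7 lies at 93.1 and 109 RPKM in activated T cells and at 193 to 629 RPKM in the other T cells, whereas Eomes lies at 6.72 and 11.7 RPKM in activated and at 0.795 to 3.30 RPKM in the other T cells.

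In medium and co-cultured T cells together, Tcf7 was about 4.18-fold higher and Eomes 4.02-fold lower than in activated T cells. This comparison set the mean of the medium and co-cultured T cells (4 libraries) against the 2 activated libraries. By the study, both later groups were kept in 4 parts keratinocyte medium (SFM), which is low in Ca++, and 1 part X-VIVO, the medium of activation. The end of the stimulus, the added time and the change of medium came together here and cannot be told apart. Of the 9 factors 2 were called at an adjusted p under 0.05, 1 higher and 1 lower, and 7 were not called. Of all 11863 genes tested, 15% were called, 5.64% higher and 9.4% lower, so that 2 of 9 is a count near this background. The median log2 fold change of the 9 factors was 0.41, beside −0.03 for all genes. All log2 fold changes, SEs and adjusted p-values are from edgeR's quasi-likelihood test on exon reads with Benjamini-Hochberg adjustment over all genes tested. The fit held the 6 T-cell libraries for comparisons among T cells, the 4 keratinocyte libraries for keratinocytes and 8 libraries for the difference in co-culture effect. With fewer cells of a type and less RNA per cell, a bulk library gives the same reads, and these cannot be told apart.

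Tcf7 (ENSMUSG00000000782; chr11:52252371-52283014, minus strand; 13 exons) was read 4107 and 4119 times in activated T cells, 25512 and 11697 times in medium T cells and 19068 and 7159 times in co-cultured T cells. In RPKM the libraries stood at 93.1 and 109, 629 and 258, and 477 and 193. All 4 later libraries were above both activated libraries, while replicate 1 was well above replicate 2 in each later group. The log2 fold change was 2.06 (SE 0.46, adjusted p = 0.0245). Without activated replicate 1 it was 1.92 (adjusted p = 0.157) and without activated replicate 2 it was 2.23 (adjusted p = 0.0688), so that the call, but not the size, rested on both activated libraries. Over the 16 alternatives the adjusted p lay between 3.22e-07 and 0.157, and Tcf7 was called in 13. In each T-cell library 14.6% to 19.1% of the exon reads of Tcf7 crossed an exon junction, so that spliced RNA was read throughout.

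Lef1 (ENSMUSG00000027985; chr3:131110471-131224356, plus strand; 13 exons), the other HMG-box factor, was at 22.2 and 10.3 RPKM in activated, 57.1 and 17.6 RPKM in medium and 34.9 and 17.7 RPKM in co-cultured T cells. The groups overlapped, since activated replicate 1 exceeded the lower library of both later groups. The log2 fold change of 1.10 (SE 0.51, adjusted p = 0.187) did not pass the test. Between 6.37% and 24.9% of the reads in the Lef1 gene fell on introns in T-cell libraries, compared with 2.51% to 3.65% for Tcf7.

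Foxo1 (ENSMUSG00000044167; chr3:52268336-52353221, plus strand; 3 exons) varied less. Its level was 9.30 and 13.9 RPKM in activated, 22.3 and 12.03 RPKM in medium and 18.7 and 14.4 RPKM in co-cultured T cells, with medium replicate 2 below activated replicate 2. Its log2 fold change was 0.69 (SE 0.33, adjusted p = 0.202).

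Eomes (ENSMUSG00000032446; chr9:118478212-118486132, plus strand; 10 exons) was the factor that fell. It was read 814 and 402 times in activated T cells, 212 and 57 times in medium T cells and 152 and 100 times in co-cultured T cells, or at 11.7 and 6.72, 3.30 and 0.795, and 2.40 and 1.70 RPKM. Both activated libraries were above all 4 later ones, with the medium libraries differing most from each other. Its log2 fold change was −2.01 (SE 0.51, adjusted p = 0.0350). It was −1.61 (adjusted p = 0.226) without activated replicate 1 and −2.32 (adjusted p = 0.0525) without activated replicate 2. The adjusted p lay between 4.08e-05 and 0.226 over 16 alternatives, and Eomes was called in 13 of them. Of 57 exon reads of Eomes in medium replicate 2, its lowest T-cell library, 0 crossed a junction (95% exact binomial interval up to 6.27%). In the other T-cell libraries 6.72% to 14.5% did. 

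Tbx21 (ENSMUSG00000001444; chr11:97098071-97115331, minus strand; 6 exons), the relative of Eomes, was at 44.3 and 19.5 RPKM in activated, 13.1 and 13.1 RPKM in medium and 16.9 and 14.2 RPKM in co-cultured T cells. Although the activated libraries did not overlap with the others, they differed from each other by more than the later groups did from one another. The share of all genes without overlap between activated and later libraries was not counted. The lack of overlap for Tcf7, Eomes, Tbx21 and Bcl6 is therefore a description only. Its log2 fold change of −0.98 (SE 0.34) had an adjusted p of 0.0917 and was called in 2 of 16 alternatives, without the filter on low counts (adjusted p = 0.0391) and without activated replicate 2 (−1.42, adjusted p = 0.0396).

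Id2 and Id3 did not differ beyond the spread between libraries. Id2 (ENSMUSG00000020644; chr12:25093799-25097140, minus strand) was at 14.9 and 49.4 RPKM in activated, 38.5 and 48.0 RPKM in medium and 30.8 and 37.6 RPKM in co-cultured T cells. Activated replicate 1 was the lowest of the 6 libraries and activated replicate 2 the highest, and Cd4 was at 16.8 and 102 RPKM in these same libraries. The part of other cells in the level of Id2 was not tested. The log2 fold change of Id2 was 0.41 (SE 0.48, adjusted p = 0.618), and it ranged from −0.21 without activated replicate 1 to 1.60 without activated replicate 2. Id3 (ENSMUSG00000007872; chr4:136143497-136145755, plus strand) was at 14.3 and 29.5, 20.2 and 30.1, and 17.1 and 20.4 RPKM, with a log2 fold change of 0.15 (SE 0.42, adjusted p = 0.852).

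Prdm1 and Bcl6 were low in T cells. Prdm1 (ENSMUSG00000038151; chr10:44437177-44528501, minus strand) was at 1.06 and 4.19 RPKM in activated, 2.41 and 1.98 RPKM in medium and 1.92 and 1.69 RPKM in co-cultured T cells, and its log2 fold change was −0.27 (SE 0.55, adjusted p = 0.792). Few reads were spliced in some libraries, as 1 of 324 exon reads of Prdm1 crossed a junction in activated replicate 2, which is 0.309% (95% exact binomial interval 0.00781% to 1.71%), and 2 of 200 in medium replicate 1, or 1.00% (0.121% to 3.57%). In the other 4 T-cell libraries the share was 5.10% to 17.2%. Bcl6 (ENSMUSG00000022508; chr16:23965052-23988852, minus strand) was at 0.878 and 1.24 RPKM in activated, 3.42 and 1.28 RPKM in medium and 2.59 and 2.61 RPKM in co-cultured T cells. All 4 later libraries were above the activated ones, although medium replicate 2 was close to activated replicate 2. Its log2 fold change of 1.37 (SE 0.53) did not pass after adjustment (adjusted p = 0.124). Of 63 exon reads of Bcl6 in activated replicate 2, 0 crossed a junction (up to 5.69%), while in the other T-cell libraries 8.97% to 25.0% did. Intervals cover counting error only, because PCR copies could not be told from separate molecules.

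Considered by group, medium T cells differed from activated T cells in 1 factor of 9, Tcf7, with a log2 fold change of 2.25 (SE 0.51, adjusted p = 0.0401), where 6.54% of all genes were called, 2.32% higher and 4.22% lower. Its adjusted p missed the threshold in 8 of 17 alternatives, with the highest value of 0.195 without activated replicate 1. Co-cultured T cells differed from activated T cells in 0 of 9 factors, where 10.3% of all genes were called, 4.59% higher and 5.72% lower. For Tcf7 this comparison gave 1.88 (SE 0.50, adjusted p = 0.0510), a value just past the threshold that was called in 10 of 17 alternatives, and for Eomes −1.97 (SE 0.63, adjusted p = 0.0860). At an unadjusted p under 0.05, 4 factors passed in medium and 3 in co-cultured T cells, counts near the 25% and 28.8% of all genes that did so, and DESeq2 called 2 in either. Both comparisons share the 2 activated libraries, so their values stand side by side and are not independent.

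**Figure D2:**
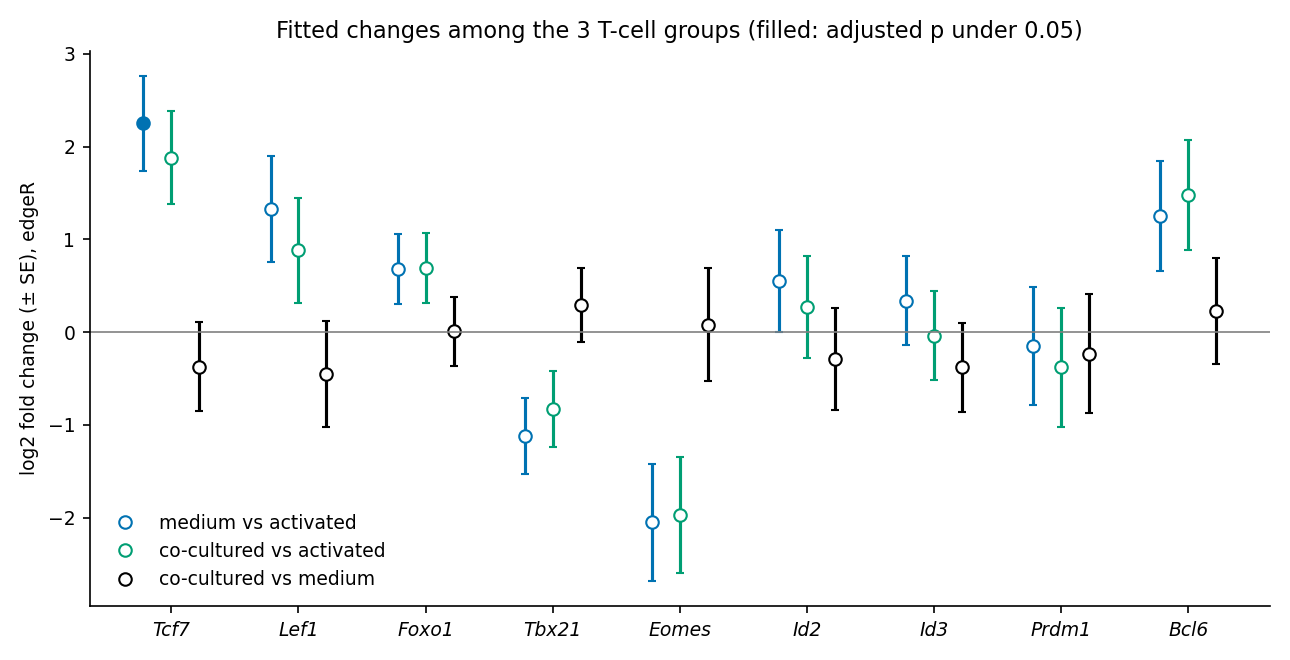
Log2 fold change with SE from edgeR (vertical axis) of the 9 factors for medium against activated, co-cultured against activated, and co-cultured against medium T cells; filled points have an adjusted p under 0.05. Only Tcf7 in medium T cells (2.25) is filled, and the black points for co-cultured against medium T cells lie between −0.45 and 0.29.

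No factor differed beyond the spread between T cells with and without keratinocytes. In co-cultured against medium T cells 0 of 9 were called, where 0.261% of all genes were called, and 0 had an unadjusted p under 0.05, as 3.45% of all genes did. The log2 fold changes lay between −0.45 (SE 0.57) for Lef1 and 0.29 (SE 0.40) for Tbx21, with SEs of 0.37 to 0.64, so that a change of this size is not detectable with 2 libraries a group. DESeq2 also called 0 factors here. Tcf7 was at a mean of 335 RPKM in co-cultured and 444 RPKM in medium T cells (log2 fold change −0.37, SE 0.48, adjusted p = 1). Tbx21, Id2 and Prdm1 were the 3 factors whose libraries did not overlap between these groups, with means of 15.5 against 13.1, 34.2 against 43.3 and 1.80 against 2.19 RPKM, and 27.4% of all genes tested had no overlap either, so that 3 of 9 is near this background. Keratinocyte RNA was present in the co-cultured T cells, since their Krt14 was 0.491% of that in keratinocytes alone, against 0.00926% in medium T cells. Prdm1 and Id3 were at means of 10.1 and 36.5 RPKM in keratinocytes alone, and the part of this RNA in the levels of co-cultured T cells was not tested.

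The balance between paired factors was then compared as a ratio of RPKM within each library. Tcf7 exceeded Lef1 by 4.19- and 10.6-fold in activated, 11- and 14.7-fold in medium and 13.6- and 10.9-fold in co-cultured T cells. The mean log2 ratio rose from 2.74 to 3.64 between the 2 activated and the 4 later libraries without overlap, yet activated replicate 2 lay close to the later ones, and the difference of 0.90 was 0.24 without activated replicate 1. Tbx21 exceeded Eomes by 3.80- and 2.90-fold in activated, 3.95- and 16.4-fold in medium and 7.02- and 8.37-fold in co-cultured T cells, a difference of 1.24 in the mean log2 ratio. Medium replicate 1 lay close to activated replicate 1. The difference was 0.89 without medium replicate 2 and 0.77 with a pseudocount of 1 added to RPKM. For both pairs the exact two-sided permutation p was 0.133, which is the smallest that 2 against 4 libraries allow, so these ratios cannot reach the threshold in this design. Id2 to Id3 (1.04 and 1.68 in activated, 1.60 to 1.91 in the other T cells) and Prdm1 to Bcl6 (1.21 and 3.38 in activated, 0.647 to 1.54 in the other T cells) overlapped between the groups, each with an exact permutation p of 0.267.

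**Figure D3:**
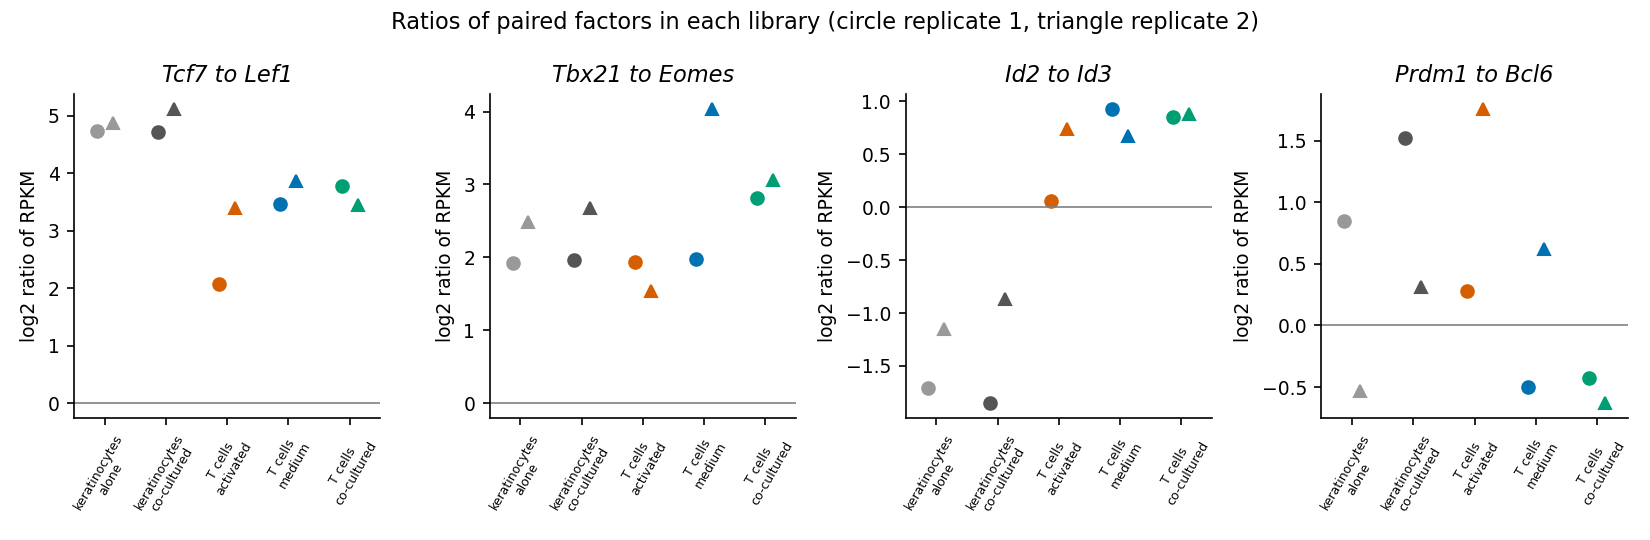
Log2 ratio of RPKM (vertical axis) of Tcf7 to Lef1, Tbx21 to Eomes, Id2 to Id3 and Prdm1 to Bcl6 in each library by group; circles are replicate 1 and triangles replicate 2. Mean log2 ratios in activated and later T cells were 2.74 and 3.64 for Tcf7 to Lef1 and 1.73 and 2.97 for Tbx21 to Eomes, and Id2 to Id3 is below 0 in all 4 keratinocyte libraries.

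Genes of the naive and memory programme, listed with earlier results of these data known, rose in part. Of 14 such genes, all tested, 4 were called higher and 0 lower in the later T cells against activated T cells. Of all genes tested, 5.64% were called higher and 9.4% lower in this comparison. The 14 genes had a median log2 fold change of 1.33, beside −0.03 for all genes. Among those called, Cd27, a costimulatory receptor, was at 38.7 and 41.1 RPKM in activated and at 99.6 to 123 RPKM in later T cells. On the log2 scale Cd27 rose by 1.66 (SE 0.28, adjusted p = 0.00846) and Nsg2 by 3.53 (SE 0.47, adjusted p = 0.00439). Slamf6, a surface receptor of memory-like cells, rose by 1.54 (SE 0.43, adjusted p = 0.0491), from 3.92 and 10.4 RPKM in activated T cells. It was called in neither later group set singly against activated T cells (adjusted p = 0.0819 for medium and 0.0883 for co-cultured T cells). The other 10 were not called and lay on both sides of 0, among them Il7r at 1.46 (adjusted p = 0.113) and Satb1 at −1.04 (adjusted p = 0.0770). Over the alternatives the number called higher ran from 1 to 9 and the number called lower from 0 to 1.

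Among 14 effector genes 0 were called higher and 4 lower, where 5.64% of all genes were called higher and 9.4% lower. Their median log2 fold change was −0.35. The 4 were Gzmb and Prf1, which encode granzyme B and perforin of the killing granules, Il2ra, the high-affinity chain of the IL-2 receptor, and Tnfrsf9, a costimulatory receptor induced by activation. Gzmb was at 2966 and 1968 RPKM in activated T cells, 134 and 174 RPKM in medium T cells and 391 and 574 RPKM in co-cultured T cells (log2 fold change −2.98, SE 0.31, adjusted p = 0.00253). Log2 fold changes were −3.13 for Prf1 (SE 0.34, adjusted p = 0.00279), −3.04 for Il2ra (SE 0.26, adjusted p = 0.00189) and −3.66 for Tnfrsf9 (SE 0.28, adjusted p = 0.00143). The remaining 10 effector genes were not called and lay on both sides of 0. Zeb2 was lower and just missed the threshold (−2.24, adjusted p = 0.0517). Chemokine and receptor genes such as Ccl5 (0.72, adjusted p = 0.430) and Cxcr3 (1.43, adjusted p = 0.0982) had positive values. Between 4 and 5 were called lower and 0 to 2 higher over the alternatives.

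The 19 relatives and partners of the factors were other TCF, FOXO, Id, T-box and Blimp family members, E proteins and co-repressors. Of these, 15 could be tested and 0 were called, with a median of −0.26, where 15% of all genes were called. At an unadjusted p under 0.05 only Tcf4, an E protein, passed (log2 fold change −1.57, SE 0.55, adjusted p = 0.0914), at 0.128 to 0.948 RPKM in T cells. Id1, another Id gene, had the largest log2 fold change at −2.79 (SE 1.56, adjusted p = 0.268) on 0 to 38 exon reads a library.

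**Figure D4:**
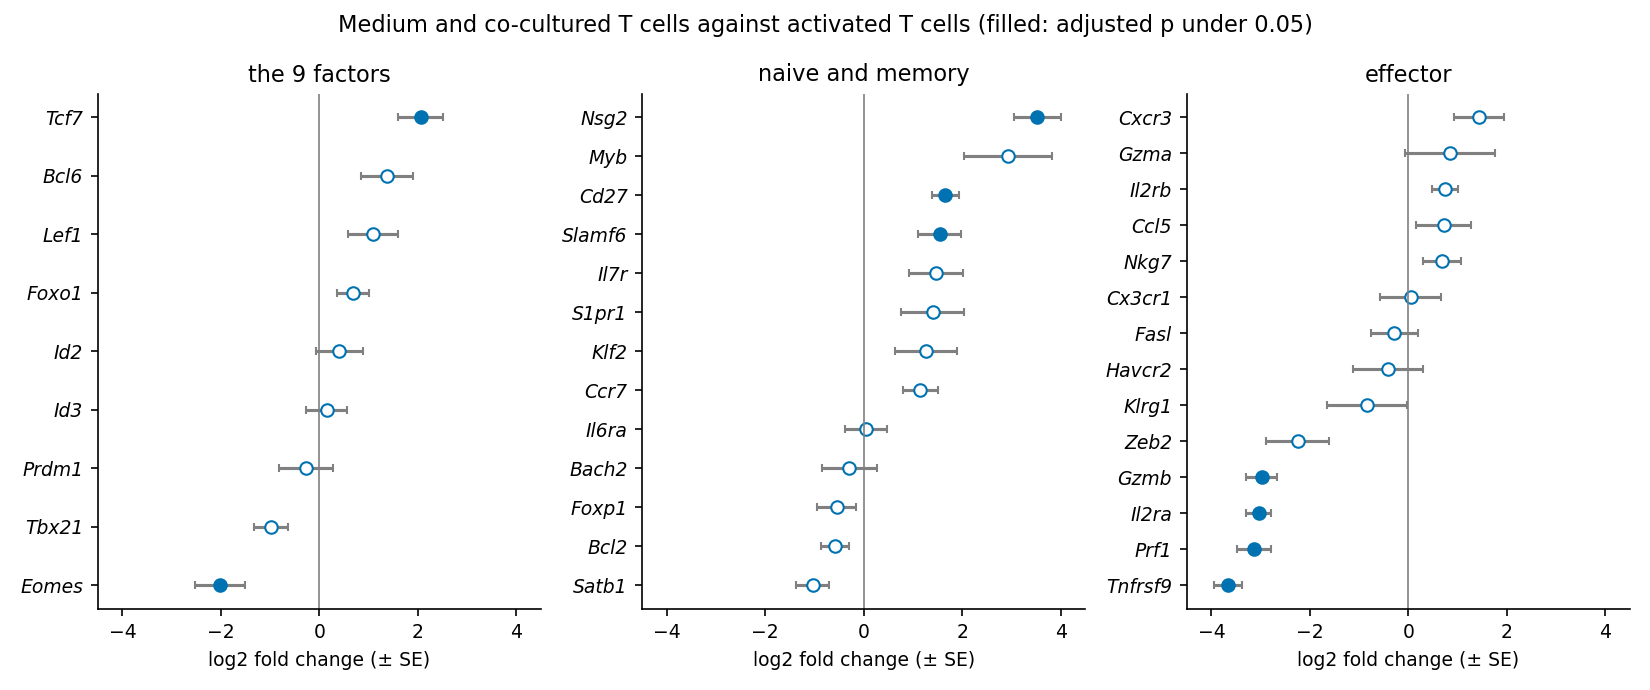
Log2 fold change with SE (horizontal axis) of medium and co-cultured T cells together against activated T cells for the 9 factors, 13 of the 14 naive and memory genes and 14 effector genes; filled points have an adjusted p under 0.05. Filled points above 0 are Tcf7, Cd27, Nsg2 and Slamf6, and those below 0 are Eomes and 4 effector genes.

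Levels of the factors in keratinocyte libraries fell into 2 kinds, with Id3 sharing traits of both. Prdm1, Bcl6 and Id3 were higher on average in both keratinocyte groups than in each T-cell group, with Id3 at 28.6 and 44.3 RPKM alone and 30.4 and 54.3 RPKM after co-culture. Without T cells Prdm1 reached 13.1 and 7.18 RPKM, and 14.2 and 3.67 RPKM in co-cultured keratinocytes, and Bcl6 at 7.25 and 10.4, and 4.95 and 2.96 RPKM. Foxo1 was even, at 5.50 to 6.60 RPKM over the 4 libraries. By contrast Tcf7 was at 9.17 and 33.5 RPKM alone and at 12.9 and 57.6 RPKM after co-culture, Tbx21 at 0.720 and 2.76, and 0.740 and 5.41 RPKM, and Eomes at 0.190 and 0.495, and 0.190 and 0.846 RPKM. Lef1 was at 0.346 to 1.66 RPKM and Id2 at 8.77 and 19.9, and 8.45 and 29.7 RPKM. Each of these factors, and also Id3, was higher in replicate 2 of either group. So were Cd4 and Cd3e, also where no T cells had been added. Cd3e was at 14.4 and 56.8 RPKM alone and 19.4 and 88.6 RPKM after co-culture. Cd8b1 stayed at or under 2.00 RPKM.

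After co-culture with T cells 0 of the 9 factors were called in keratinocytes, where 0% of all genes were called by edgeR, with 901 of 12515 genes at an unadjusted p under 0.05 and 186 called by DESeq2. Bcl6 was the factor whose groups did not overlap, at a mean of 3.95 RPKM after co-culture and 8.81 RPKM alone (log2 fold change −1.11, SE 0.40, adjusted p = 0.658), while 44.1% of all genes tested had no overlap between these groups. DESeq2 called 0 factors as well. Tcf7 gave 0.82 (SE 0.96, adjusted p = 0.772), and its sign, like that of Lef1, Tbx21, Eomes, Id2, Id3 and Prdm1, turned when co-cultured replicate 2 was left out (Tcf7 at −0.75). The effect of co-culture in T cells (against medium) less that in keratinocytes differed for 0 of 9 factors, with 0.576% of all genes called, and the nearest value was Bcl6 at 1.35 (SE 0.71, adjusted p = 0.818). 

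Since Cd4 rose and fell with these T-cell factors in the keratinocyte libraries, their ratio to Cd4 was computed there and carried over to the T-cell libraries, a comparison chosen after the values had been seen. Tcf7 stood at 0.682 to 0.861 of Cd4 in the 4 keratinocyte libraries, Tbx21 at 0.0495 to 0.0640, Lef1 at 0.0197 to 0.0326 and Eomes at 0.0100 to 0.0166. At the mean ratio, the RPKM of Tcf7 that goes with Cd4 was 14.1% of its level in activated replicate 1 and 73.1% in activated replicate 2, but 8.32% to 25.0% in the later libraries. For Eomes it was 1.83% and 19.3% in activated T cells and 25.8% to 121% in the later libraries, of which medium replicate 2 had less Eomes than this amount. After subtraction the log2 ratio of mean RPKM between the 4 later and the 2 activated libraries went from 1.95 to 2.62 for Tcf7, from 0.97 to 1.03 for Lef1, from −1.16 to −1.47 for Tbx21 and from −2.16 to −2.77 for Eomes. As the mean of Cd4 was similar in activated and later T cells, such a subtraction could hardly turn a direction, and it is given as a description only. Whether cells with Cd4 had the same ratios in T-cell as in keratinocyte libraries was not tested.

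**Figure D5:**
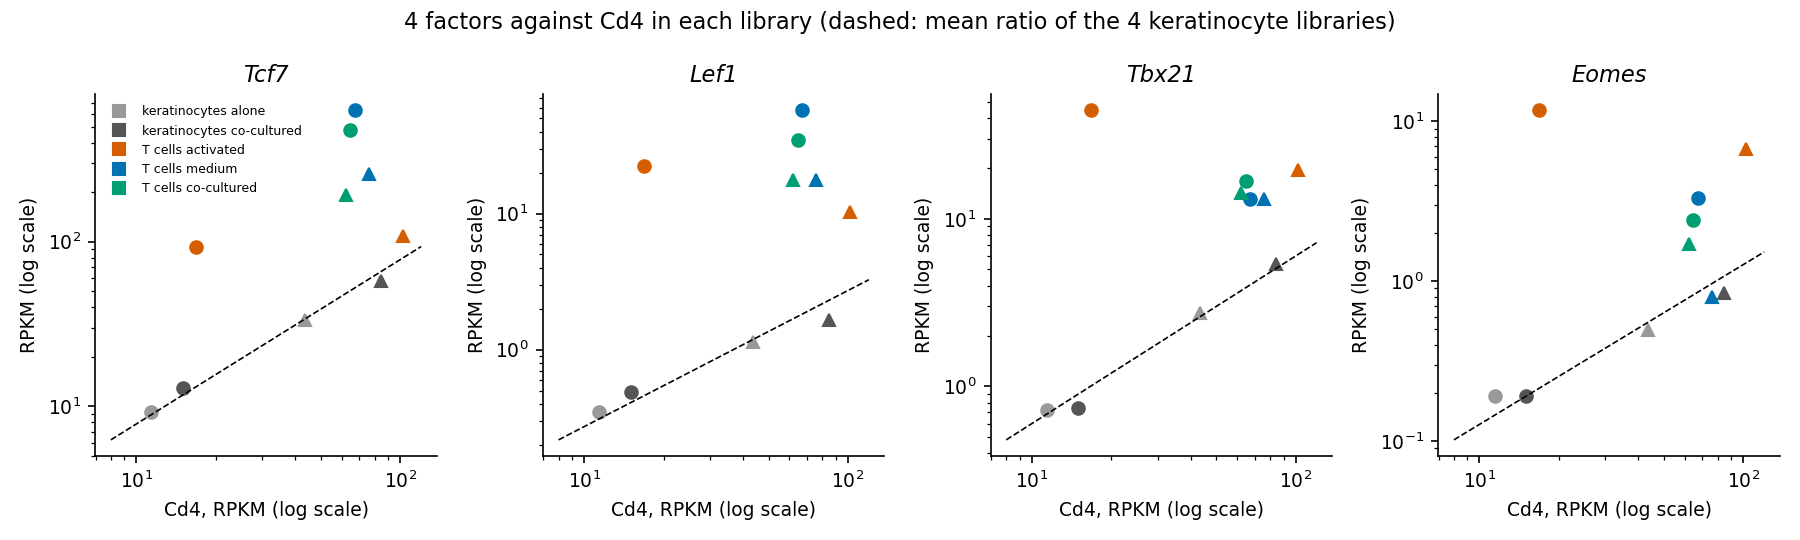
RPKM of Tcf7, Lef1, Tbx21 and Eomes (vertical axes, log scale) against RPKM of Cd4 (horizontal axes, log scale) in the 10 libraries, with the dashed line at the mean ratio of the 4 keratinocyte libraries; circles are replicate 1 and triangles replicate 2. Keratinocyte libraries lie along the line, and Tcf7 of activated replicate 2 (109 RPKM at 102 RPKM of Cd4) lies nearer to it than Tcf7 of activated replicate 1 (93.1 RPKM at 16.8 RPKM of Cd4).

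Genes with the profile most like each factor over the 10 libraries were taken from 8735 genes at 5 RPKM or more in some group, by Pearson's r of log2(RPKM + 1). As T cells and keratinocytes form separate clusters, r mostly reflects the difference between them and is given as a description. Tcf7 was nearest to Fam78a (r = 0.995) and Arhgef6 (0.994), with 500 genes above 0.9. Lef1 was nearest to Prkcb (0.988), Tbx21 to Slc29a1 (0.990), Eomes to Plagl2 (0.973) and Foxo1 to Nlk (0.969). Id2 was nearest to Tbc1d4 (0.998) and Bcl6 to Zfand3 (0.974), and Trib1 (0.968) was among the nearest to Prdm1. Id3 had the fewest neighbours, with 9 genes above 0.9 and Nr1d2 (0.948) first.

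Reads of neighbouring genes bore little on these values. The annotation places Gm42449 inside Lef1 and Gm38034 inside Foxo1, with 0 reads each, and Gm37419 on the opposite strand of Bcl6 with 0 to 4 reads a library. The counting is not stated to use strand.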

How the data were processed

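RNA was sequenced from 10 libraries of murine keratinocytes and CD8+ T cells, 2 for each of 5 groups, which were taken from the labels. From 20 ng RNA the authors made poly(A) libraries (NEBNext Ultra II), read 59 bases from 1 end (HiSeq2500) and aligned these to GRCm38 in the CLC Genomics Workbench v7.5.1 at default settings. The annotation release and strand setting are not given in the sources used here. The authors deposited, per gene and library, counts of exon reads without normalization, counts of uniquely mapped, junction and intron reads, and RPKM values, which scale exon reads to exon length and mapped reads.

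The 9 factors, the gene lists and the tests were chosen with earlier results of these data known. Exon reads were tested in R 4.3.3 by edgeR 4.0.16 (filter on low counts by filterByExpr, TMM, glmQLFit, glmQLFTest, Benjamini-Hochberg adjustment over all genes tested, threshold 0.05). The 6 T-cell and 4 keratinocyte libraries were fitted apart, and the 8 libraries without activated T cells were fitted together for the difference in co-culture effect. RPKM served for levels, and ratios were compared with an exact two-sided permutation test in scipy 1.17.1. The 9 factors are all named. Of the other lists, genes with an adjusted p under 0.05 are named, at most 6 per list, or else the 2 with the largest log2 fold change. Il7r, Satb1, Zeb2, Ccl5 and Cxcr3 were named after their values had been seen. The fits were tested on simulated data. Replicates were separate libraries, with a chi-square per degree of freedom of 94.2 to 209.

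As alternatives, counts were tested by DESeq2 1.42.0, RPKM values by limma 3.58.1 after log2 with a pseudocount of 1 or 0.1, and edgeR was run with library size or DESeq2 size factors for scaling, without filter, with genes of 10 counts or more in each library, on unique exon reads, on total gene reads, with other sets of libraries, with a replicate block and with each library left out. Subtraction of the level that goes with Cd4 was added after the data had been seen. Start sequences came from RefSeq tables, in which all 9 factors were found. Protein sequences were not used here. The single values of 2 genes that this rule and the profile comparison would name are not reported here.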

Additional observations from a re-analysis of the deposited data

How the results depend on the processing

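With 2 libraries a group, calls depended on the setting more than directions did. For medium against activated T cells, 1 factor was called, but 2 with DESeq2, 3 without the filter on low counts, and 0 with limma at either pseudocount, with library size in place of TMM or with all 10 libraries in 1 fit, and 0 to 1 with a library left out. For co-cultured against activated T cells, 0 were called, but 2 with DESeq2, without the filter or with only the 4 libraries of both groups, 1 with DESeq2 size factors, at least 10 counts, unique exon reads or total gene reads, and 0 to 2 with a library left out. For both later groups together, 2 were called, but 4 without the filter, 0 with all 10 libraries in 1 fit and 0 to 2 with a library left out, of which 0 without activated replicate 1 and 1, Tbx21, without activated replicate 2. Unfiltered fits and DESeq2 also called more of all genes (2860 and 2854 against 1784 for both later groups, 1945 and 1947 against 776 for medium, 2425 and 2368 against 1222 for co-cultured T cells), while without activated replicate 1 these counts were 356, 62 and 266. The cause was not tested. In the other 3 comparisons 0 factors were called under each alternative run. Library size in place of TMM moved the median of all genes from −0.03 to −0.16 for both later groups, and the share of higher calls for co-cultured T cells from 44.5% to 34.2%, with no sign of Tcf7, Lef1, Foxo1, Tbx21, Eomes or Bcl6 turning against activated T cells.

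Of 882 log2 fold changes of single factors under an alternative, 787 kept their sign and side of the threshold, 21 became called, 14 lost their call and 60 turned sign, none of them called. With a library left out, the values of factors that turned ranged as follows. Against activated T cells they ran, in medium T cells, from −0.06 to 1.75 for Id2, −0.10 to 1.03 for Id3 and −0.82 to 1.24 for Prdm1, in co-cultured T cells from −0.36 to 1.46, −0.48 to 0.65 and −1.06 to 1.00, and in both from −0.21 to 1.60, −0.29 to 0.84 and −0.94 to 1.12. For co-cultured against medium T cells they ran from −1.03 to 0.29 for Tcf7, −1.03 to 0.50 for Lef1, −0.32 to 0.41 for Foxo1, −0.58 to 1.31 for Eomes, −0.71 to 0.02 for Id3 and −0.27 to 0.97 for Bcl6. In keratinocytes they ran from −0.75 to 2.10 for Tcf7, −0.62 to 1.78 for Lef1, −0.02 to 0.10 for Foxo1, −1.25 to 2.26 for Tbx21, −0.86 to 1.60 for Eomes, −0.78 to 1.27 for Id2, −0.28 to 0.70 for Id3 and −1.33 to 0.47 for Prdm1, and for the difference in co-culture effect from −2.47 to 0.43 for Tcf7, −2.23 to 0.21 for Lef1, −0.37 to 0.37 for Foxo1, −1.97 to 1.58 for Tbx21, −1.52 to 0.98 for Eomes, −1.56 to 0.54 for Id2 and −0.68 to 1.06 for Prdm1. The other sign changes were near 0: Prdm1 in medium against activated T cells at 0.03 with limma on log2(RPKM + 0.1), Id3 in co-cultured against activated T cells at 0.03 with all 10 libraries, in co-cultured against medium T cells Foxo1 at −0.06 with library size and −0.01 with total gene reads and Eomes at −0.0012 with library size, in keratinocytes Foxo1 at −0.01 with limma at either pseudocount and −0.0029 with library size, and for the difference in co-culture effect Foxo1 at 0.05 with DESeq2 or its size factors, 0.01 with limma on log2(RPKM + 1) and 0.02 on log2(RPKM + 0.1), and Prdm1 at 0.03 with DESeq2 or its size factors, 0.16 with limma on log2(RPKM + 1) and 0.15 on log2(RPKM + 0.1). Over left-out libraries the difference in log2 ratio was 0.24 to 1.57 for Tcf7 to Lef1, 0.89 to 1.57 for Tbx21 to Eomes, 0.09 to 0.78 for Id2 to Id3 and −1.99 to −0.51 for Prdm1 to Bcl6. The replicate block was possible in keratinocytes only, since the labels number just 1 of the T-cell groups. Deviations of same-numbered keratinocyte libraries correlated at 0.558 over 12515 genes, and with the block 0 factors and 2 genes were called, against 0 and 0 without it.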

Other observations

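Reads on introns made up a larger part of the reads of Prdm1 in T cells than in keratinocytes, at 16% of 1296 summed gene reads in the 6 T-cell libraries and 2.69% of 3568 in the 4 keratinocyte libraries. For Bcl6 these shares were 12.9% and 1.22%, whereas for Tcf7 they were 3.17% and 3.56%. They went the other way for Lef1 (11.8% and 36.4%), Tbx21 (5.09% and 10.9%) and Id3 (0.343% and 1.48%). Foxo1 (3.18% and 1.71%), Id2 (1.07% and 0.653%) and Eomes (0.23% and 0%) had the larger share in T cells. Over all genes, introns held 2.41% to 4.26% of gene reads in T-cell libraries and 1.84% to 3.05% in keratinocyte libraries. Eomes reads in the keratinocyte libraries were few, at 12 to 58 exon reads a library, and of these 13 of 35 crossed a junction in keratinocytes alone replicate 2 but 1 of 58 in co-cultured keratinocytes replicate 2.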
